A study of Homo sapiens with 20 samples.

Results

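NC and R-47, groups of heated liver cancer cells that carry the same labels, were compared across the whole transcriptome. They make up 10 of the 20 RNA-seq libraries of the series, 5 in each group, and were chosen by their labels alone. The labels give MHCC-97H, an established human hepatocellular carcinoma line known for its high metastatic potential, as the source of every library. R-47 is the heated arm of a first experiment on sublethal heat, in which wild-type cells spent 15 minutes in a water bath at 47 °C and then 24 hours in an incubator. NC carries the same labels, wild-type and 47 °C for 15 minutes with 24 hours of recovery, but belongs to a second experiment, on gene knockdown by shRNA. The labels do not say whether the NC cells carried a control shRNA. The other 10 libraries are R-37, the 37 °C arm of the first experiment, and NFS1, heated cells with the knockdown label of the second. Nothing in the labels tells whether a group's 5 libraries are separate cultures; p-values therefore cover the spread among these libraries alone, and that spread may be technical. With the same genotype, temperature and time on both labels, the comparison describes the state of the cells in each experiment and is no test of a treatment. Experiment, culture history and library preparation cannot be told apart from the group. Whether both experiments used the same stock of the line was not tested either. The values beside that question are 27.2% of the genes tested past 2-fold, 39 genes with no read in NC that every R-47 library held, and 9 chromosome arms with shifted medians, all given below.

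Hepatocytes and bile duct cells arise from a common fetal progenitor. Hepatocytes make plasma proteins such as albumin and carry the simple keratins KRT8 and KRT18, while bile duct cells and progenitors add KRT7, KRT19, SOX9 and laminin-binding integrins. Liver cancer lines often hold a mixture of these programmes together with oncofetal and cancer-testis genes that are silent in most adult tissues. Epithelial cells that move towards a mesenchymal state usually gain vimentin and lose junction proteins, but the markers of such a shift do not always travel together.

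KRT19, CD81, MMP7, PRKCA and VIM were given as markers of the contrast, with earlier results of these data known, so that their levels are a description. The promoters of those with an entry in the RefSeq promoter table (GRCh38.p14, the 250 bases before the annotated start, 5′ to 3′) are shown because these genes define the contrast. SLC25A36, a gene with no read in any NC library, is added to them. Capitals mark CG dinucleotides in VIM, PRKCA and SLC25A36, and the AP-1-type motif TGANTCA, searched on both strands, in MMP7.
VIM, chr10:17227991-17228240, plus strand: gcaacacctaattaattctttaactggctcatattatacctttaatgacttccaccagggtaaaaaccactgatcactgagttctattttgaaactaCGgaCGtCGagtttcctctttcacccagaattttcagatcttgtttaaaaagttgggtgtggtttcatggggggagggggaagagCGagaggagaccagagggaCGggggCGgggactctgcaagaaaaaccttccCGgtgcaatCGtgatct
PRKCA, chr17:66302363-66302612, plus strand: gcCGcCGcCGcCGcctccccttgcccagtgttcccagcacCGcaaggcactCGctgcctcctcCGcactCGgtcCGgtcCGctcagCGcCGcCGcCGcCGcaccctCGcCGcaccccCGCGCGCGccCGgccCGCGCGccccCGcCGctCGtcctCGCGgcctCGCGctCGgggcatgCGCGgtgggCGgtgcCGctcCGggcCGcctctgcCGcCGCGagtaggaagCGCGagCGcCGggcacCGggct
SLC25A36, chr3:140941586-140941835, plus strand: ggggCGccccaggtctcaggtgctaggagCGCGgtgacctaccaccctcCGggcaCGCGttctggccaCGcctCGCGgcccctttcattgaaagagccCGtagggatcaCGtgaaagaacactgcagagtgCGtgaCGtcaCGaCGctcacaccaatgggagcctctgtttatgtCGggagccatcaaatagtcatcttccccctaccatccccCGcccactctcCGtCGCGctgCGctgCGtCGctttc
MMP7, chr11:102530748-102530997, minus strand: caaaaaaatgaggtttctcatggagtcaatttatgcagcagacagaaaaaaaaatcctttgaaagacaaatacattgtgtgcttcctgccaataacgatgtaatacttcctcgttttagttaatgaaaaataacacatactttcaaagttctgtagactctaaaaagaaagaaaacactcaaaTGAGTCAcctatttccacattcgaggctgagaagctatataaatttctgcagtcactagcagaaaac
The VIM window held 8 CG dinucleotides, PRKCA 47, SLC25A36 23 and MMP7 3, against a median of 21 over the 10397 tested protein-coding genes with an entry. The single TGANTCA match of MMP7 began 67 bases before the start. That motif occurred in 6.60% of all 27305 promoters of the table and in 3.92% of those of tested protein-coding genes. A match is a description of the letters and not of binding.

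KRT19, the keratin of bile duct cells and progenitors, was all but absent from NC. Levels are given in CPM, counts put on a common library size, scaled over the 10 libraries by the trimmed mean of M values (TMM), with the mean ± SD over 5 libraries. KRT19 counted 0.664, 0.906, 0.6996, 0.971 and 0.771 CPM in NC, and 439, 413, 439.9, 399 and 436 CPM in R-47. No value of one group came near the other. The mean was 0.802 ± 0.132 CPM in NC and 425 ± 18.6 CPM in R-47, a 527-fold difference (log2 fold change -9.04 ± 0.0752, SE). CD81, a tetraspanin that organises membrane signalling and is the entry receptor of hepatitis C virus, was nearly undetected in NC. Values of CD81 were 0.0531, 0, 0.0259, 0.0767 and 0 CPM in the NC libraries and 67.4, 71.2, 71.8, 63.7 and 65.05 CPM in those of R-47. The NC libraries held 6 reads in all and the R-47 libraries 12011, a ratio of 2183 with an exact 95% interval of 1003 to 5950 for counting error only. MMP7, the matrix protease matrilysin, was detected in both groups. MMP7 stood at 8.18, 8.31, 8.19, 8.15 and 7.502 CPM in the NC libraries and at 212, 206, 189, 189.9 and 204 CPM in those of R-47. The groups did not overlap and differed 24.8-fold. PRKCA, the alpha isoform of protein kinase C, followed the same direction. In NC the PRKCA values were 34.5, 34.4, 31.97, 30.3 and 33.1 CPM, and in R-47 they were 312, 294, 307, 298 and 288 CPM. Every R-47 library lay above every NC library, with means of 32.8 ± 1.77 CPM in NC and 299.7 ± 9.92 CPM in R-47. VIM, the intermediate filament of mesenchymal cells, had the opposite direction. Library by library, VIM was at 226, 231, 219, 212 and 208 CPM in NC and at 10.5, 10.3, 11.3, 8.95 and 10.7 CPM in R-47. All 5 NC libraries lay above all 5 R-47 libraries, 21.2-fold on average (log2 fold change 4.40 ± 0.0601, SE).

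The libraries that share an experiment with each group lay beside it for all 5 markers. Scaled over all 20 libraries, KRT19 averaged 425 CPM in R-37, 423 in R-47, 0.794 in NC and 0.651 in NFS1 and VIM averaged 10.6 CPM in R-37, 10.3 in R-47, 217 in NC and 164 in NFS1. CD81 averaged 62.1 CPM in R-37, 67.4 in R-47, 0.0308 in NC and 0.0302 in NFS1, MMP7 238 CPM in R-37, 199 in R-47, 7.98 in NC and 14.98 in NFS1 and PRKCA 363 CPM in R-37, 298 in R-47, 32.5 in NC and 55.3 in NFS1. Each marker was therefore high or low with the experiment, at 37 °C as at 47 °C in the first and under either genotype label in the second.

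**Figure D1:**
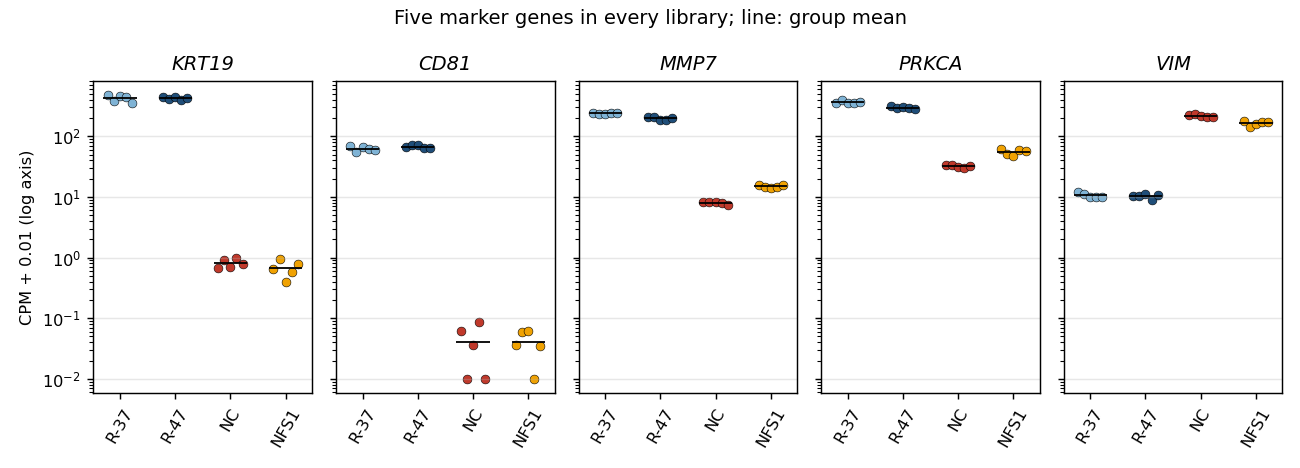
CPM + 0.01 on a log axis of the 5 markers in each of the 20 libraries, scaled over all 20, with lines at the group means (n = 5 each). R-37 and R-47 lie together, as do NC and NFS1: KRT19 averages 425 CPM in R-37 and 0.651 CPM in NFS1.

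Across the genome the difference was broad. Of 15080 genes tested, 6043 (40.1%) were higher and 5978 (39.6%) lower in NC at an adjusted p under 0.05 (edgeR quasi-likelihood test with Benjamini-Hochberg adjustment over all genes tested), so 79.7% of genes were called. A count of called members in any gene list below has to be read against that share. A gene that passed the filter on low counts only through the group where it is high had to differ, so shares of a list describe its tested members. More than 2-fold, 2117 genes (14%) were higher and 1989 (13.2%) lower, 27.2% in all, and the 2 groups did not overlap for 10152 genes (67.3%). The median absolute log2 fold change was 0.54. It was 0.15 between R-47 and R-37 and 0.19 between NFS1 and NC, where 314 and 441 genes passed 2-fold. Scaling by library size alone instead of TMM shifted the median of all genes from 0.01 to 0.19 on the log2 scale and the split to 7465 higher against 4740 lower, so 61.2% instead of 50.3% of the calls were higher in NC. Directions below are relative to the TMM scale, and lists whose balance turns or evens out with the scale are named.

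NFS1 against R-37 pairs the same 2 experiments and shares no library with NC and R-47, though these groups also differ in temperature and genotype label. There 72.7% of 14955 genes were called. Of the 12021 calls between NC and R-47, 9272 (77.1%, and 85.3% of the NFS1 and R-37 calls) had the same direction there and 269 the opposite. Among calls over 2-fold in both, 3023 shared the direction and 11 did not. Of the 137 genes named by the rule stated under the processing, 130 were called in the same direction there. TSPAN12, TAP2, IFIT2 and MUC5AC had the opposite sign. Genes named outside that rule were chosen after their values were seen. Spearman correlation between libraries ran from 0.994 to 0.997 within NC and from 0.995 to 0.996 within R-47, but only from 0.938 to 0.941 between them. NC correlated more closely with NFS1 (0.979 to 0.991), and R-47 with R-37 (0.986 to 0.994).

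**Figure D2:**
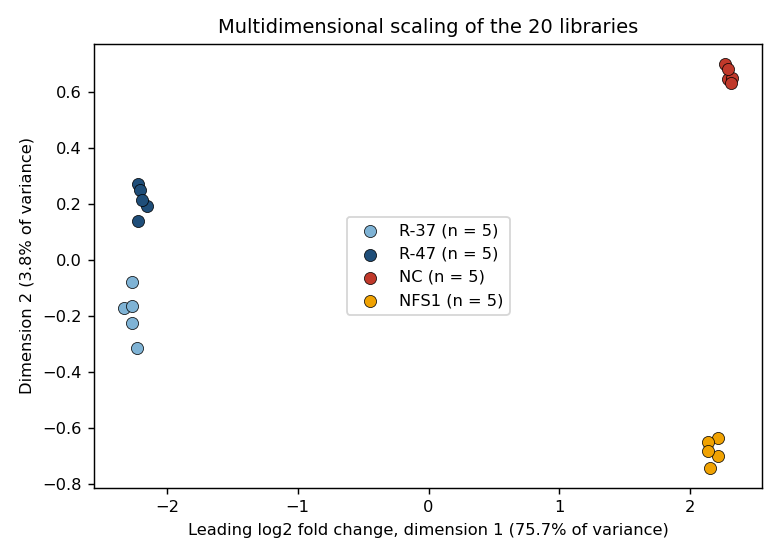
Multidimensional scaling of the 20 libraries on the 500 genes of largest log2 difference per pair, where each point is a library and each axis a leading log2 fold change. Dimension 1, with 75.7% of the variance, parts R-37 and R-47 from NC and NFS1, and dimension 2, with 3.8%, parts the groups of each experiment.

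Depth was alike in the groups, with 35732485 to 36744075 counts per library in NC and 35431078 to 39094039 in R-47. NC libraries detected more genes, 19451 to 19784 against 18852 to 19185. The 100 most abundant genes took 20.2% ± 0.470 of the counts in NC and 22.7% ± 0.152 in R-47, and mitochondrially encoded genes 3.80% ± 0.360 and 5.25% ± 0.216 (SD, n = 5). The part of these shares in the results was not tested.

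The keratin difference was one of kind as well as amount. KRT8 and KRT18, the keratin pair of all simple epithelia, remained abundant in NC, at 3249 ± 89.1 CPM in NC and 4563 ± 193 CPM in R-47 for KRT8. KRT7, the other bile duct keratin, was 9.39-fold lower in NC (5.36 ± 0.357 CPM in NC and 50.4 ± 2.501 CPM in R-47). KRT20, a keratin of intestinal epithelium, was 7.85-fold lower (117 ± 15.1 CPM in NC and 917 ± 34.9 CPM in R-47). KRT15, which lies beside KRT19 on chromosome 17, was also lower in NC, 3.54-fold, while the keratin genes between KRT19 and EIF1 averaged at most 0.252 CPM in either group. The desmosome proteins DSP and JUP were 3.04-fold and 3.76-fold lower, whereas the desmosomal cadherin DSC2 was 3.79-fold higher in NC (62.6 ± 2.94 CPM in NC and 16.5 ± 1.59 CPM in R-47). E-cadherin, CDH1, was low in both groups and lower in NC (4.03 ± 0.668 CPM in NC and 18.6 ± 0.803 CPM in R-47). The tight junction gene CLDN7 had the other direction (34.5 ± 2.48 CPM in NC and 7.73 ± 0.868 CPM in R-47). Of 24 tested members of the keratin and junction list, 9 were higher and 14 lower, and 10 (41.7%) differed over 2-fold, against 27.2% of all genes. The list's median log2 fold change was -0.38, against 0.01 for all genes.

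Regulators of epithelial identity leaned the same way: of 12 tested, 3 were higher and 7 lower, with a median of -0.72. SPINT1, an inhibitor of matriptase at the epithelial surface, fell from 29.8 ± 2.75 CPM in R-47 to 0.602 ± 0.182 CPM in NC. EHF, an ETS factor of epithelia, was 15.8-fold lower (7.14 ± 0.6403 CPM in NC and 113 ± 4.44 CPM in R-47). AP1M2, an epithelial adaptor of basolateral sorting, and the splicing regulator ESRP2 were modestly higher in NC, 1.73-fold and 1.32-fold.

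Genes of the mesenchymal list did not follow VIM as a group. Of 24 tested, 8 were higher and 14 lower in NC, 13 (54.2%) differed over 2-fold, and the median was -0.39. LOX, the enzyme that crosslinks collagen, was higher with VIM. For LOX the values were 7.38, 6.39, 6.71, 5.495 and 6.65 CPM in NC, against 0.467, 0.198, 0.192, 0.367 and 0.2699 CPM in R-47. Fibronectin, FN1, a main protein of the pericellular matrix, was far lower in NC. FN1 counted 730.3, 685, 669, 577 and 599.8 CPM in NC, and 7295, 7204, 7855, 6726 and 7129 CPM in R-47. These groups lay 11.1-fold apart without overlap. COL6A2, a chain of collagen VI, was 7.57-fold lower (40.5 ± 1.76 CPM in NC and 306 ± 21.8 CPM in R-47) and tenascin C, TNC, 3.27-fold lower. Of the transcription factors linked to mesenchymal change, SNAI2 was 2.25-fold higher in NC (13.4 ± 1.49 CPM in NC and 5.95 ± 0.892 CPM in R-47) and ZEB1 1.48-fold lower (15.00 ± 2.499 CPM in NC and 22.1 ± 0.334 CPM in R-47). ZEB2 was higher (20.2 CPM in NC and 12.5 CPM in R-47, log2 fold change 0.69 ± 0.0861, SE), and SNAI1 did not pass the test (14.5 and 16.4 CPM; edgeR adjusted p = 0.0512). These factors had no common direction. The shorter list of fibroblast and stellate markers leaned with VIM, with 6 higher and 1 lower of 7 tested. There 5 (71.4%) passed 2-fold and the median was 1.12, but only 7 of its 15 genes were tested. It shares COL3A1 with the mesenchymal list, at low levels (0.777 CPM in NC and 0.356 CPM in R-47), so it is no separate check.

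Integrins, the receptors that tie cells to laminin and other matrix proteins, were mostly lower in NC. Of 20 integrin subunits tested, 2 were higher and 17 lower in NC, 12 (60%) differed over 2-fold and the median was -1.32. ITGA3, a laminin receptor subunit, was 10.1-fold lower. Values of ITGA3 were 42.3, 40.5, 39.1, 33.6 and 36.3 CPM in the NC libraries and 398, 371, 416, 357 and 389.6 CPM in those of R-47. ITGB4, the hemidesmosomal subunit that pairs with ITGA6, was 7.85-fold lower (41.6 ± 4.204 CPM in NC and 326 ± 23.9 CPM in R-47), and ITGB1, the shared beta subunit, 1.98-fold (308 ± 32.7 CPM in NC and 611 ± 41.01 CPM in R-47). ITGA6 itself differed 1.18-fold (285 ± 34.1 CPM in NC and 337 ± 26.6 CPM in R-47), a call that was lost when libraries were scaled by size alone (adjusted p = 0.372) and in the 3 tests on the deposited FPKM values, which divide counts by gene length and depth. The 2 integrins higher in NC were ITGB7, at 2.23-fold, and ITGAE, at 1.45-fold.

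Among 25 tetraspanins and TM4SF proteins tested, 6 were higher and 17 lower, and 11 (44%) passed 2-fold. CD81 was the extreme. TM4SF20 fell from 6.17 ± 0.448 CPM in R-47 to 0.0776 ± 0.0728 CPM in NC. CD9 and CD63, which sit with CD81 in extracellular vesicles, were abundant in both groups and 1.46-fold and 1.95-fold lower in NC (129 ± 13.8 CPM in NC and 189 ± 2.46 CPM in R-47 for CD9), and CD151, a partner of laminin-binding integrins, was 1.36-fold higher. TSPAN8 was 6.86-fold higher in NC. TSPAN8 stood at 100.2, 114, 89.2, 92.1 and 93.6 CPM in the NC libraries and at 15.6, 14.03, 12.2, 13.2 and 16.3 CPM in those of R-47. TSPAN12, a Norrin receptor component, was 2.32-fold higher (2.96 ± 0.402 CPM in NC and 1.28 ± 0.305 CPM in R-47) but lower in NFS1 than in R-37. The genes next to CD81 on chromosome 11 did not share its low level as a block. TSSC4 was higher in NC (78.8 ± 12.9 against 48.2 ± 1.81 CPM), CDKN1C was nearly absent there, and PHLDA2 did not pass the test (133 ± 8.99 against 134 ± 9.13 CPM).

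The basement membrane genes moved in both directions. Of 22 collagens and laminins tested, 6 were higher and 14 lower, and 10 (45.5%) passed 2-fold. The paired genes COL4A5 and COL4A6, which encode collagen IV chains from a shared promoter region on chromosome X, were both higher in NC. In NC the COL4A5 values were 15.8, 16.1, 15.7, 14.2 and 15.9 CPM, and in R-47 they were 0.385, 0.0566, 0.0549, 0.113 and 0.1499 CPM. COL4A6 held 512 reads over the NC libraries and 2 over R-47, a ratio of 235 with an exact 95% interval of 64.6 to 1943. COL17A1, the hemidesmosomal collagen, was 27.3-fold lower (1.84 ± 0.386 CPM in NC and 50.4 ± 2.94 CPM in R-47), and COL18A1, the precursor of endostatin, 10.2-fold lower (14.8 ± 1.87 CPM in NC and 152 ± 14.5 CPM in R-47).

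Matrix proteases split within one locus. MMP7, MMP10 and MMP1 lie in the matrix metalloproteinase cluster of chromosome 11, MMP7 at 102520508 to 102530747 and MMP1 at 102789919 to 102798160 (GRCh38). While MMP7 was lower in NC, the interstitial collagenase MMP1 was higher. Library by library, MMP1 was at 195, 195, 156, 145 and 154 CPM in NC and at 2.78, 1.95, 2.14, 2.51 and 2.37 CPM in R-47. The difference was 71.8-fold (log2 fold change 6.17 ± 0.11, SE; edgeR adjusted p = 6.96e-22). MMP10 followed MMP1 at low levels (1.19 ± 0.215 CPM in NC and 0.06205 ± 0.06704 CPM in R-47). Of 26 proteases and inhibitors tested, 9 were higher and 17 lower, and 16 (61.5%) passed 2-fold, 7 of them higher and 9 lower. Under scaling by library size alone that last balance was 8 higher and 7 lower. ADAMTS1, which cleaves versican, was 9.07-fold higher (29.5 ± 0.941 CPM in NC and 3.25 ± 0.298 CPM in R-47) and MMP2, a gelatinase, 2.47-fold higher. ADAM12, a sheddase, had no read in NC against 13.1 ± 1.62 CPM in R-47, at least 169-fold higher in R-47 against a floor of 3 reads per library. The inhibitors TIMP2 and TIMP1 were 6.66-fold and 2.75-fold lower in NC, and the urokinase gene PLAU 1.78-fold lower.

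Most bile duct and progenitor genes were lower in NC. Of 18 tested, 3 were higher and 13 lower, 13 (72.2%) passed 2-fold and the median was -1.36. This list shares KRT19, KRT7 and MMP7 with the markers and keratins above. SOX9, the duct factor, was 2.51-fold lower (6.67 ± 1.35 CPM in NC and 16.7 ± 1.35 CPM in R-47), the hyaluronan receptor CD44 2.66-fold lower (199.8 ± 23.2 CPM in NC and 532 ± 18.7 CPM in R-47) and ANXA4, an annexin of ductal epithelium, 4.09-fold lower (49.5 ± 5.25 CPM in NC and 202.3 ± 6.83 CPM in R-47). LGR5, a stem cell receptor of the Wnt pathway, went against most of the list. For LGR5 the values were 4.11, 4.24, 4.09, 3.22 and 3.57 CPM in NC, against 0.0275, 0.1697, 0, 0.0282 and 0.02999 CPM in R-47. NC was above R-47 in every library at low absolute levels. GGT1 was 1.401-fold higher in NC.

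Hepatocyte secretory genes were likewise mostly lower in NC. Of 27 tested, 7 were higher and 18 lower, 20 (74.1%) passed 2-fold, and the median was -1.29. Albumin, ALB, was low in both groups (0.859 ± 0.427 CPM in NC and 5.13 ± 0.763 CPM in R-47). The alpha-1 antitrypsin gene SERPINA1 was low as well (0.869 ± 0.221 CPM in NC and 2.38 ± 0.387 CPM in R-47). ITIH2, an inter-alpha-trypsin inhibitor chain that stabilises hyaluronan, showed the widest gap of the abundant members. ITIH2 counted 1.27, 1.09, 0.933, 0.6901 and 0.899 CPM in NC, and 139, 128, 128, 121 and 125 CPM in R-47. These groups differed 131-fold. RBP4, the plasma carrier of retinol, had no read in NC and 3.88 ± 0.354 CPM in R-47, at least 49.9-fold higher in R-47. In the other direction, the fibrinogen chain FGB was 2.43-fold higher in NC (103 ± 3.18 CPM in NC and 42.2 ± 2.02 CPM in R-47) and A1CF, the cofactor of APOB editing, 2.73-fold higher (44.9 ± 5.51 CPM in NC and 16.5 ± 0.977 CPM in R-47). APOB was 2.003-fold higher (6.88 ± 1.199 CPM in NC and 3.43 ± 0.218 CPM in R-47).

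The transcription factors of the liver lineage did not share that lean. Of 22 tested, 9 were higher and 10 lower, a balance that was 11 higher and 9 lower under scaling by library size alone. HNF4A, the master factor of hepatocytes, was higher in NC. Values of HNF4A were 93.5, 90.2, 99.1, 100.2 and 104 CPM in the NC libraries and 52.9, 52.5, 60.1, 56.6 and 56.2 CPM in those of R-47. The groups did not overlap. FOXA3 and ONECUT1, both of hepatic development, were 3.42-fold and 5.104-fold higher, and GATA4 1.46-fold higher. The bile acid receptor NR1H4 fell from 10.8 ± 0.944 CPM in R-47 to 0.305 ± 0.0728 CPM in NC, and the xenobiotic receptor NR1I2 was 7.27-fold lower (0.823 ± 0.2100 CPM in NC and 6.01 ± 1.18 CPM in R-47).

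Oncofetal genes split too, with 4 higher and 6 lower of 10 tested. Past 2-fold they were 2 higher and 3 lower, or 3 higher and 1 lower under scaling by library size alone. PEG10, an imprinted retrotransposon-derived gene, was 17.8-fold higher in NC. PEG10 stood at 234, 219, 213, 221 and 226 CPM in the NC libraries and at 13.4, 12.4, 14.1, 12.3 and 10.3 CPM in those of R-47. SALL4, a fetal liver factor, was 1.88-fold higher at low levels (2.44 ± 0.405 CPM in NC and 1.295 ± 0.192 CPM in R-47). HMGA2, an architectural chromatin protein, was 2.97-fold lower (17.4 ± 2.501 CPM in NC and 51.6 ± 4.998 CPM in R-47). H19, an imprinted noncoding RNA, was 2.15-fold lower (195 ± 36.4 CPM in NC and 419 ± 37.6 CPM in R-47). The fetal marker AFP was 1.301-fold higher, with overlapping libraries (5.23 ± 0.743 CPM in NC and 4.02 ± 0.384 CPM in R-47).

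Metabolic enzymes of the liver showed 14 higher and 20 lower of 36 tested, with 19 (52.8%) past 2-fold. CYP24A1, which inactivates vitamin D, was 26.4-fold lower in NC (5.25 ± 0.588 CPM in NC and 139 ± 6.599 CPM in R-47), and the tyrosine enzyme HPD 8.99-fold lower (1.44 ± 0.407 CPM in NC and 13.02 ± 0.637 CPM in R-47). UGT1A1, which conjugates bilirubin, was 8.37-fold higher (241 ± 23.4 CPM in NC and 28.8 ± 1.898 CPM in R-47), but the UGT1A genes share exons and their reads cannot be split with certainty. CYP2W1, a fetal cytochrome, was higher at low levels (4.27 ± 0.788 CPM in NC and 0.103 ± 0.0698 CPM in R-47). AKR1B10 and ALDH1A1, abundant in both groups, were 1.81-fold and 1.87-fold lower, while ALDH3A1 was 1.67-fold higher (1591 ± 79.5 CPM in NC and 954 ± 59.2 CPM in R-47).

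Cancer-testis genes are normally read only in germ cells, and many lie on chromosome X. Of 27 in the table, 15 were too low in both groups to be tested. Of the 12 tested, 2 were higher and 9 lower in NC. Most of those 9 passed the filter on low counts through R-47 alone, with 4 at no read in NC, so that these counts describe the tested members only. SSX1, a chromatin-associated germ cell protein, was the most abundant of the 9. In NC the SSX1 values were 0, 0, 0.0777, 0.0256 and 0.0257 CPM, and in R-47 they were 46.3, 51.2, 50.98, 49.2 and 52.5 CPM. The NC libraries held 5 reads in all and the R-47 libraries 8842. MAGEC2 had 6 reads in NC and 8.19 ± 0.572 CPM in R-47, MAGEC1 1 read and 2.84 ± 0.294 CPM, and CSAG1 no read and 1.93 ± 0.291 CPM. MAGEA3 and CSAG3 had the opposite direction, 2.69-fold and 7.896-fold higher in NC (177 ± 10.04 CPM in NC and 65.9 ± 1.68 CPM in R-47 for MAGEA3). Both have near-identical copies beside them, so that their counts are uncertain.

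**Figure D3:**
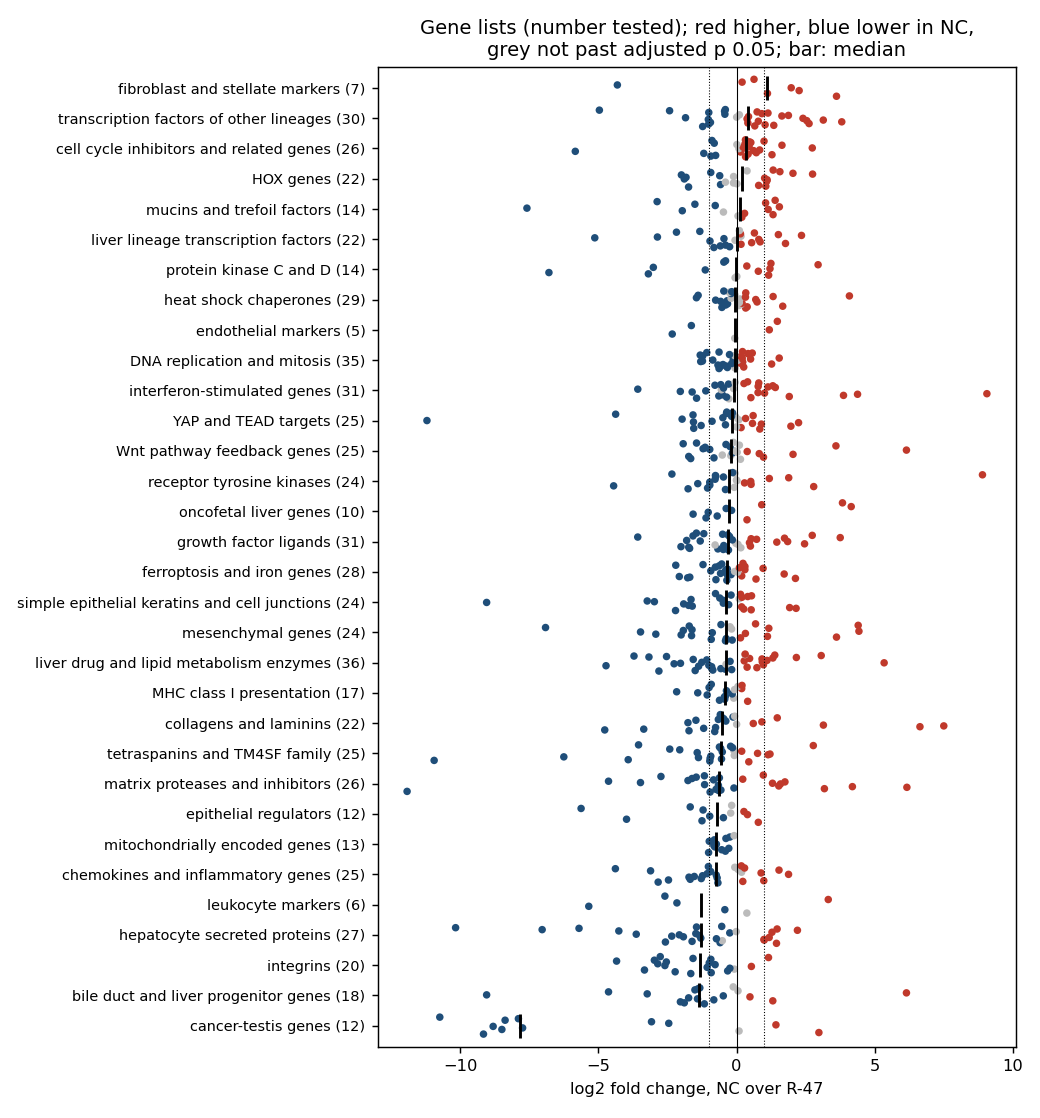
log2 fold change of NC over R-47 for each tested member of the 32 gene lists, with the number tested in brackets, medians as bars, and dotted lines at 2-fold. Bile duct, integrin and hepatocyte secretory lists lie left of 0 (medians -1.36, -1.32 and -1.29), and most cancer-testis members tested passed the filter through R-47 alone; genes without a read in NC are drawn at their fitted value.

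HOX genes, which set position along the body axis, lay on both sides. Of 22 tested, 10 were higher and 7 lower, near the split of all genes, and 13 (59.1%) passed 2-fold. HOXC10 and HOXC11 were higher in NC (2.31 ± 0.3400 CPM in NC and 0.342 ± 0.213 CPM in R-47 for HOXC10) and HOXB3 and HOXB5 lower (1.09 ± 0.101 CPM in NC and 4.06 ± 0.6899 CPM in R-47 for HOXB3). Of 30 factors of other lineages, 17 were higher and 11 lower, 17 (56.7%) passed 2-fold, and the median was 0.42. MITF, the melanocyte factor, was 14.01-fold higher. Library by library, MITF was at 13.4, 12.9, 11.8, 13.1 and 11.9 CPM in NC and at 1.02, 0.933, 1.02, 0.763 and 0.7497 CPM in R-47. GATA2, of blood and endothelium, was 2.05-fold higher (85.2 ± 4.502 CPM in NC and 41.6 ± 0.868 CPM in R-47). The intestinal factor CDX2 was detected in both groups and 1.58-fold higher in NC. PAX8 was 3.59-fold lower and SOX2 2.01-fold lower (24.2 ± 0.741 CPM in NC and 48.6 ± 2.36 CPM in R-47).

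Protein kinase C isoforms diverged beyond PRKCA. PRKCB, the beta isoform, fell from 59.9 ± 2.14 CPM in R-47 to 0.538 ± 0.139 CPM in NC, a 111-fold difference. PRKCE was 2.19-fold lower, and PRKCD, the delta isoform, 1.73-fold higher (63.1 ± 3.56 CPM in NC and 36.5 ± 3.09 CPM in R-47). PRKD1 was higher at low levels (2.68 ± 0.423 CPM in NC and 1.13 ± 0.304 CPM in R-47). Of 14 kinases tested, 6 were higher, 6 lower and 8 (57.1%) past 2-fold, and by library size alone 8 were higher and 6 lower.

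Receptor tyrosine kinases showed 7 higher and 13 lower of 24 tested, or 10 and 12 under scaling by library size alone. MET, the receptor of hepatocyte growth factor, was among the most abundant transcripts of both groups. For MET the values were 8122, 7236, 6689, 6581 and 6644 CPM in NC, against 11843, 11746, 11628, 12494 and 11739.7 CPM in R-47. The groups did not overlap but lay only 1.69-fold apart. CAV2, from the same region of chromosome 7, was 1.88-fold lower in NC (2121 ± 151 CPM in NC and 3996 ± 266 CPM in R-47). CAV1 differed less (6212 CPM in NC and 6922 CPM in R-47, log2 fold change -0.16 ± 0.0429, SE). EGFR was 2.07-fold lower (105 ± 13.3 CPM in NC and 218 ± 2.57 CPM in R-47), EPHB2 21.8-fold lower (1.21 ± 0.379 CPM in NC and 26.4 ± 2.06 CPM in R-47) and ROR1 5.06-fold lower (10.2 ± 1.97 CPM in NC and 51.8 ± 1.66 CPM in R-47). RET, the receptor of glial-derived ligands, was present in NC only: the NC libraries held 4.57, 3.39, 4.82, 4.47 and 4.32 CPM of RET and the R-47 libraries 0, 0.0283, 0, 0 and 0 CPM. KDR, a receptor of vascular endothelial growth factor, was 2.28-fold higher (44.6 ± 3.74 CPM in NC and 19.6 ± 1.55 CPM in R-47).

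Of 31 growth factor ligands tested, 10 were higher and 17 lower, or 13 and 13 under scaling by library size alone. TGFA, a ligand of EGFR, was 11.9-fold lower in NC (3.22 ± 0.404 CPM in NC and 38.4 ± 3.62 CPM in R-47) and DKK3 4.03-fold lower (8.76 ± 0.588 CPM in NC and 35.3 ± 2.32 CPM in R-47). PDGFC and TGFB3 were 13.5-fold and 6.68-fold higher (12.01 ± 0.967 CPM in NC and 0.888 ± 0.208 CPM in R-47 for PDGFC).

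In the Wnt pathway, CTNNB1, which encodes beta-catenin, was higher in NC. CTNNB1 counted 559, 556, 578, 568 and 567 CPM in NC, and 279, 290.0, 296, 294 and 278 CPM in R-47. Other members of the list lay on both sides. LGR5, described above, and SP5, a Wnt-induced factor, were higher in NC (0.993 CPM in NC and 0.0778 CPM in R-47 for SP5). The feedback inhibitor AXIN2 was 1.76-fold lower (73.5 ± 3.06 CPM in NC and 129.5 ± 1.52 CPM in R-47) and DKK1, a secreted inhibitor, 3.31-fold lower (76.9 ± 10.1 CPM in NC and 255 ± 9.09 CPM in R-47). TCF7L1 was lower and the receptor FZD3 higher at low levels (7.46 ± 0.819 CPM in NC and 1.81 ± 0.584 CPM in R-47 for FZD3). Of 25 Wnt genes tested, 6 were higher, 12 lower and 7 not called, and by library size alone 9 were higher and 10 lower. Of 25 YAP and TEAD targets, 8 were higher and 14 lower, or 10 and 12 by library size alone. FJX1 had no read in NC and 7.96 ± 1.06 CPM in R-47, at least 102-fold higher in R-47, and VGLL3, a TEAD cofactor, was 20.7-fold lower, while CCN1 and AJUBA were 1.87-fold and 1.79-fold higher.

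Of 14 mucin and trefoil genes tested, 7 were higher and 5 lower, and 9 (64.3%) passed 2-fold. The membrane mucin MUC4 fell from 15.6 ± 2.37 CPM in R-47 to 0.0775 ± 0.0574 CPM in NC. The gel-forming mucin MUC5AC was 2.93-fold higher in NC (142 ± 17.7 CPM in NC and 48.4 ± 5.69 CPM in R-47), though lower in NFS1 than in R-37. TFF3 was higher and TFF2 lower, both at low levels.

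Immune signalling genes were mixed. Of 31 interferon-stimulated genes tested, 14 were higher and 13 lower, and this balance turned to 1 more lower than higher without R-47 replicate 1 and with a gene length offset. IFI44L and IFI44, neighbours on chromosome 1, were nearly confined to NC: the NC libraries held 5.52, 5.33, 4.22, 4.58 and 4.44 CPM of IFI44L and the R-47 libraries 0, 0, 0.0274, 0 and 0 CPM. IFI44 averaged 2.54 ± 0.336 CPM in NC and 0.119 ± 0.116 CPM in R-47. IFITM2 was 11.9-fold lower (1.05 ± 0.296 CPM in NC and 12.5 ± 1.09 CPM in R-47), and IFIT2 4.09-fold lower. Of 17 genes of class I antigen presentation, 3 were higher and 11 lower, with 3 (17.6%) past 2-fold. NLRC5, the transactivator of these genes, was 4.49-fold lower (1.799 ± 0.328 CPM in NC and 8.09 ± 0.1498 CPM in R-47) and HLA-F 2.64-fold lower, while B2M and TAP2 were 1.32-fold and 1.15-fold higher. HLA genes are near-identical to one another, so their counts are uncertain. Of 25 chemokines and inflammatory genes, 7 were higher and 15 lower. LCN2, a siderophore-binding protein, fell from 18.7 ± 1.97 CPM in R-47 to 0.891 ± 0.275 CPM in NC, and IL1B was 8.64-fold lower. The chemokine CXCL8 and the cytokine IL32 were 3.69-fold and 2.903-fold higher (85.01 ± 5.12 CPM in NC and 29.3 ± 0.601 CPM in R-47 for IL32).

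Both groups were heated, and the heat shock genes were read for that reason. Chaperones as a list differed less than the genome: of 29 tested, 10 were higher and 11 lower, 5 (17.2%) passed 2-fold, and the median absolute log2 fold change was 0.33 against 0.54. Their balance turned to 14 higher and 8 lower under scaling by library size alone, and to 1 more higher than lower without NC replicate 3 or without R-47 replicate 1. HSPA8, the constitutive HSP70, was lower in NC. Values of HSPA8 were 557, 528, 463, 586 and 597 CPM in the NC libraries and 1740.5, 1353, 1438, 1240.3 and 1382 CPM in those of R-47. HSPA2, a testis-rich family member, was 2.73-fold lower. The small chaperone CRYAB was 3.19-fold higher (54.7 ± 8.73 CPM in NC and 17.2 ± 2.24 CPM in R-47), and its mean in unheated R-37 was 0.920 CPM against 62.2 CPM in NFS1 on the scale of all 20 libraries. HSPA6, the strictly inducible HSP70, was higher in NC, with libraries far apart. HSPA6 stood at 5.47, 6.16, 14.8, 30.3 and 39.4 CPM in the NC libraries and at 0.3300, 1.24, 1.48, 1.497 and 1.11 CPM in those of R-47. HSPA1A, the main inducible HSP70, overlapped between the groups. In NC the HSPA1A values were 42.9, 57.2, 92.8, 199 and 246 CPM, and in R-47 they were 94.8, 73.5, 79.4, 68.1 and 78.3 CPM. The difference in HSPA1A passed the test only narrowly (edgeR adjusted p = 0.0416) and was lost in 14 of the 22 alternative settings, among them without NC replicate 4 (adjusted p = 0.157), without NC replicate 5 (0.273) and without any one of R-47 replicates 2 to 5 (0.0678 to 0.0906). The adjusted p in those 14 settings for HSPA1A ran from 0.0621 to 0.333. HSPA1A and HSPA6 have near-identical copies, which makes their counts uncertain. HSP90AA1 and HSPD1 were 1.67-fold and 1.26-fold higher in NC.

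Iron and ferroptosis genes, the subject of the study, were near the background in size. Of 28 tested, 9 were higher and 17 lower, and 7 (25%) passed 2-fold against 27.2% of all genes. NFS1, the cysteine desulfurase named by the knockdown label, was itself lower in NC than in R-47. Library by library, NFS1 was at 72.3, 73.4, 72.2, 72.7 and 76.8 CPM in NC and at 85.5, 88.3, 94.98, 96.3 and 97.8 CPM in R-47. The groups did not overlap, and the difference of 1.26-fold passed the test (edgeR adjusted p = 1.57e-06). The log2 fold change of NFS1, -0.33, was smaller in size than the median absolute value of 0.54 over all genes tested. On the scale of all 20 libraries NFS1 averaged 89.6 CPM in R-37, 92.02 in R-47, 72.7 in NC and 66.5 in NFS1. SLC7A11, the cystine importer, was 2.32-fold lower in NC (143 ± 22.2 CPM in NC and 330.2 ± 25.7 CPM in R-47), and the iron exporter SLC40A1 4.59-fold lower (23.95 ± 1.51 CPM in NC and 110.0 ± 6.097 CPM in R-47). Ceruloplasmin, CP, was 4.200-fold lower, ACSL4, which loads polyunsaturated lipids, 1.68-fold lower, and the ferritin chain FTH1 1.249-fold lower. The defence genes AIFM2 and GCH1 were 1.63-fold and 3.31-fold higher (8.31 ± 0.598 CPM in NC and 2.52 ± 0.241 CPM in R-47 for GCH1), PTGS2 was 1.95-fold higher and the transferrin receptor TFRC 1.18-fold higher. GPX4, the lipid peroxidase at the centre of the pathway, overlapped and did not pass the test (394 ± 16.5 CPM in NC and 383 ± 16.2 CPM in R-47; edgeR adjusted p = 0.349), and its sign depended on the setting: 0.22 on the log2 scale under library size alone, and -0.19 with a gene length offset, both past the threshold. TXNRD1, of the thioredoxin system, was 2.202-fold lower in NC.

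Of 35 replication and mitosis genes tested, 14 were higher and 17 lower, which became 18 higher and 14 lower under scaling by library size alone. MKI67 and TOP2A, markers of cycling cells, were 2.34-fold and 2.11-fold lower in NC (211 ± 25.7 CPM in NC and 495 ± 24.8 CPM in R-47 for MKI67), as were the mitotic genes PLK1, 2.49-fold, and CENPE, 2.46-fold. MCM4, of the replicative helicase, was 2.92-fold higher. For MCM4 the values were 1356, 1289, 1318, 1369 and 1318 CPM in NC, against 438, 467, 459, 458 and 456 CPM in R-47. CCNE2 was 2.41-fold higher. Of 26 cell cycle inhibitors and related genes, 18 were higher and 6 lower. CDKN1A and CDKN2A were 1.64-fold and 1.54-fold higher (81.2 ± 3.35 CPM in NC and 49.5 ± 1.45 CPM in R-47 for CDKN1A), RB1 3.13-fold and BTG2 2.43-fold. The imprinted inhibitor CDKN1C fell from 5.21 ± 0.794 CPM in R-47 to 0.0875 ± 0.0736 CPM in NC, and CCND3 was 2.27-fold lower, while CCND1 was 1.34-fold higher.

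All 13 protein-coding genes of the mitochondrial genome were tested and 12 were lower in NC, with a median of -0.73, and none higher. Under scaling by library size alone 10 were lower and none higher. ATP6 was 2.01-fold lower (1935 ± 172 CPM in NC and 3899 ± 208 CPM in R-47), ND3 1.98-fold, CYTB 1.77-fold and COX1 1.45-fold. This list was drawn up after the values had been seen.

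Markers of other cell types were read as a check on the label. The 10 hepatocyte markers summed to 269 to 293 CPM in NC and 177 to 199 CPM in R-47. That gap was mostly FGB (103 CPM in NC and 42.2 CPM in R-47) and HNF4A (97.3 CPM in NC and 55.7 CPM in R-47). APOB was also higher in NC, whereas ALB, SERPINA1, TF and AHSG were lower, so the sum does not speak for the set. The 6 bile duct markers present in the table summed to 206 to 269 CPM in NC and 685 to 753 CPM in R-47. The bile duct sum includes KRT19, a given marker (0.802 CPM in NC and 425 CPM in R-47), so its gap is no separate check. SPP1, also in that sum, did not pass the test (215 CPM in NC and 234 CPM in R-47; edgeR adjusted p = 0.0662), while KRT7 and SOX9 were lower in NC. Leukocyte markers summed to 0.743 to 1.54 and 0.905 to 1.36 CPM, with CD3E and CSF1R at 3 reads or fewer throughout. The 5 endothelial markers summed to 56.7 to 70.7 and 70.4 to 79.7 CPM, most of it PECAM1 (17.8 ± 1.69 CPM in NC and 55.1 ± 2.93 CPM in R-47) and KDR, while the defining CDH5 was at 3 reads or fewer. The 7 fibroblast markers summed to 24.1 to 29.1 and 17.7 to 21.0 CPM. COL1A1 and DCN were higher in NC (2.06 ± 0.168 CPM in NC and 0.166 ± 0.102 CPM in R-47 for COL1A1). A few leukocyte genes differed at low levels, among them ITGAM and CD79A, lower in NC (1.76 ± 0.205 CPM in NC and 10.6 ± 1.08 CPM in R-47 for ITGAM), and CD8A, higher (2.57 ± 0.371 CPM in NC and 0.253 ± 0.1401 CPM in R-47). Their part in the results was not tested.

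Some genes were present in one group alone, taken as at most 3 reads in every library of one group and at least 30 in every library of the other. There were 86 present in R-47 only, 75 of them protein-coding, and 39 of the 86 had no read at all in the 5 NC libraries. Only 25 were present in NC only, 18 of them protein-coding, and none of these was without a read in R-47. The same rule was met in R-37 against NFS1 by 49 of the 86 and 14 of the 25. Between the groups of one experiment it was met by 1 gene in R-47 against R-37 and by 1 in NFS1 against NC.

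The 5 most abundant genes present in R-47 only were CD81, SSX1, UPK1B, CDH6 and B4GALNT1. UPK1B, a uroplakin tetraspanin of the bladder lining, averaged 29.6 ± 2.24 CPM in R-47. CDH6, the kidney cadherin, averaged 19.96 ± 1.14 CPM, with 2 reads in all of NC. B4GALNT1, a ganglioside synthase, averaged 16.2 ± 1.08 CPM and had no read in NC, at least 209-fold higher in R-47. Beside ADAM12, the other genes among the 10 lowest fold changes were COX7B2 (at least 176-fold higher in R-47), FLYWCH2 (at least 124-fold), SLC25A36 (at least 113-fold), FSTL5 (at least 106-fold) and VCAM1 (2086 reads against 1).

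SLC25A36, the mitochondrial pyrimidine nucleotide carrier, shows how local such a gap can be. SLC25A36 counted 0, 0, 0, 0 and 0 CPM in NC, and 9.84, 6.93, 8.62, 10.1 and 8.58 CPM in R-47. None of the 5 NFS1 libraries held a read either. Its neighbours PXYLP1, ZBTB38 and RASA2 on chromosome 3 were lower in NC but well detected (ZBTB38 at 64.0 ± 5.01 against 96.9 ± 4.46 CPM), and RNF7 was higher (102 ± 9.88 against 61.2 ± 2.76 CPM). FLYWCH2 on chromosome 16 had no read in NC, while FLYWCH1 beside it was at 60.5 ± 7.32 against 71.3 ± 3.87 CPM, and KREMEN2 was higher in NC (2.73 ± 0.436 against 0.0951 ± 0.0568 CPM). At SSX1 on chromosome X, the neighbours SLC38A5 (48.98 ± 3.95 against 52.7 ± 3.85 CPM) and FTSJ1 (46.3 ± 2.69 against 133 ± 6.09 CPM) were read in both groups.

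Zinc finger genes made up 9 of the 86 genes present in R-47 only, against 436 of the 15080 genes tested. ZNF736, ZNF597 and ZNF649 were among these 9 and were chosen here after their values were seen. As a class, 436 zinc finger genes were tested, of which 143 were higher and 176 lower in NC, and 21.1% passed 2-fold, fewer than the 27.2% of all genes. Chromosomes X, 10 and 19 held 9, 9 and 8 of the 86 genes, against 3.27%, 3.79% and 6.60% of the genes tested. No other chromosome was counted in this way. The chromosome 19 genes include ZNF649, ZNF528, ZNF571, ZNF470, ZNF100 and ZNF577, so that count and the zinc finger count overlap. Promoters of the 57 protein-coding genes with an entry held a median of 12 CG dinucleotides, and 59.6% held at least 10, against 83.6% of tested protein-coding genes. For the 13 genes with an entry present in NC only the median was 3 and the share 30.8%. Genes more than 2-fold higher or lower in NC had medians of 17 and 18.

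The most abundant gene present in NC only was HCP5B, a long noncoding RNA with 9.92 ± 0.408 CPM in NC, where it held 1913 reads against 8 in R-47. The 5 most abundant protein-coding genes of this kind were SLC16A7, DIO2, SVEP1, TMEM47 and IFI44L. SLC16A7, a carrier of pyruvate and lactate, averaged 7.22 ± 0.838 CPM, with 3 reads over all of R-47. DIO2, which activates thyroid hormone, spread widely among the NC libraries: the NC libraries held 5.28, 4.06, 6.19, 8.59 and 9.35 CPM of DIO2 and the R-47 libraries 0, 0, 0, 0.0282 and 0 CPM. SVEP1, a matrix adhesion protein, averaged 5.86 ± 0.821 CPM and TMEM47, a junction protein of the claudin superfamily, 5.49 ± 0.331 CPM.

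The 10 largest rises by the naming rule were, in falling order, VWA3A, MLLT3, COL4A5, MMP1, DSEL, CA13, EGFLAM, NXN, AMDHD1 and ARC. Values of VWA3A were 17.1, 14.96, 15.4, 13.8 and 14.6 CPM in the NC libraries and 0.165, 0.0283, 0.0274, 0.0565 and 0.02999 CPM in those of R-47. MLLT3, a YEATS-domain reader of acylated histone lysines, was 120.3-fold higher. MLLT3 stood at 12.8, 13.5, 11.3, 10.9 and 11.4 CPM in the NC libraries and at 0, 0.0566, 0.1097, 0.0565 and 0.2699 CPM in those of R-47. NXN, a thioredoxin-family regulator of Wnt signalling, rose 39.4-fold (33.1 ± 1.61 CPM in NC and 0.837 ± 0.166 CPM in R-47), and EGFLAM, the matrix protein pikachurin, 40.7-fold (13.02 ± 0.823 CPM in NC and 0.3202 ± 0.2003 CPM in R-47). DSEL, an epimerase of dermatan sulfate, CA13, a carbonic anhydrase, and ARC, an activity-regulated gene of neurons, rose 59.7-fold, 56.8-fold and 29.6-fold.

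**Figure D4:**
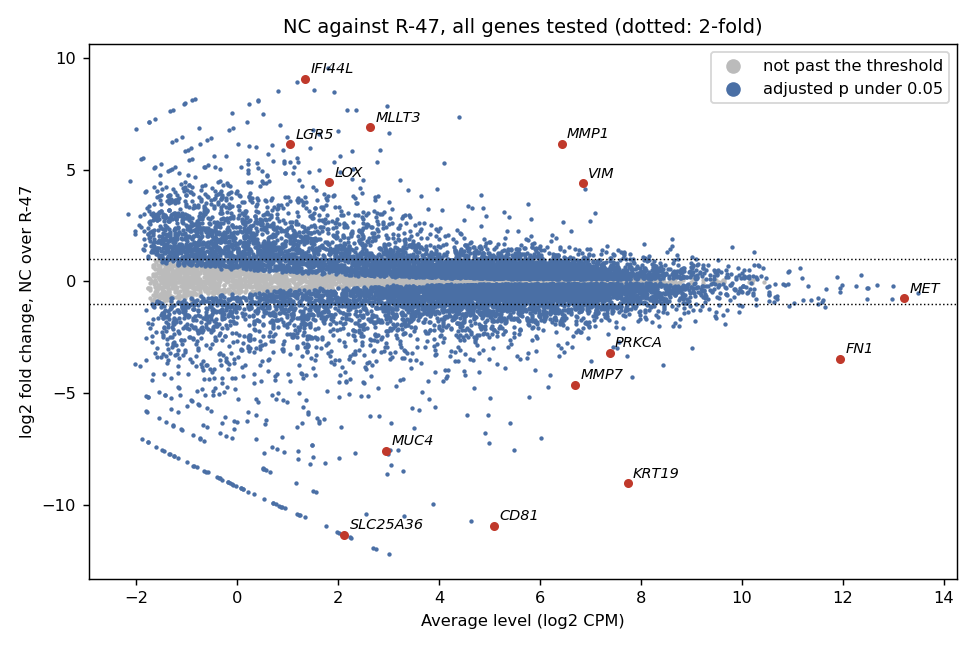
log2 fold change of NC over R-47 against average log2 CPM for the genes tested, each point a gene, with blue past the threshold and dotted lines at 2-fold. KRT19 lies at -9.04 and VIM at 4.40; the diagonal line of points at lower left holds genes without a read in NC, whose fitted values depend on the prior count.

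The difference had a chromosomal side. Over 41 chromosome arms with at least 20 genes tested, the median log2 fold change was past 0.3 in either direction on 9. It was -0.84 on Xp (191 genes), where 89 genes were over 2-fold lower and 10 over 2-fold higher in NC. On the other side stood 3p, with a median of 0.74 over 408 genes and 138 over 2-fold higher against 22 lower, and 14q, with 0.57 over 497 genes. Both 17q and 16p had medians of -0.37 and -0.35, and 17p one of 0.34. NFS1 against R-37 gave -0.78 on Xp, 0.73 on 3p and 0.36 on 14q, and across the 41 arms the medians of these comparisons correlated with a Pearson r of 0.87 and a Spearman rho of 0.85. Arms are not independent replicates.

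Chromosome 10 departed from this pattern. Its arms had medians of -0.45 (10q, 430 genes) and -0.45 (10p, 142 genes) between NC and R-47 but 0.10 and 0.03 between NFS1 and R-37. Between NFS1 and NC, both of the second experiment, they were 0.51 and 0.39, and between R-47 and R-37 they were -0.02 and -0.05. Xq had -0.41 in NC against R-47 and -0.83 in NFS1 against R-37, and -0.44 between NFS1 and NC. VIM lies on 10p and was higher in NC against the direction of its arm. MMP7, on 11q with a median of 0.28, went against its arm too. KRT19 and PRKCA on 17q (-0.37) and CD81 on 11p (-0.20) had the direction of theirs.

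**Figure D5:**
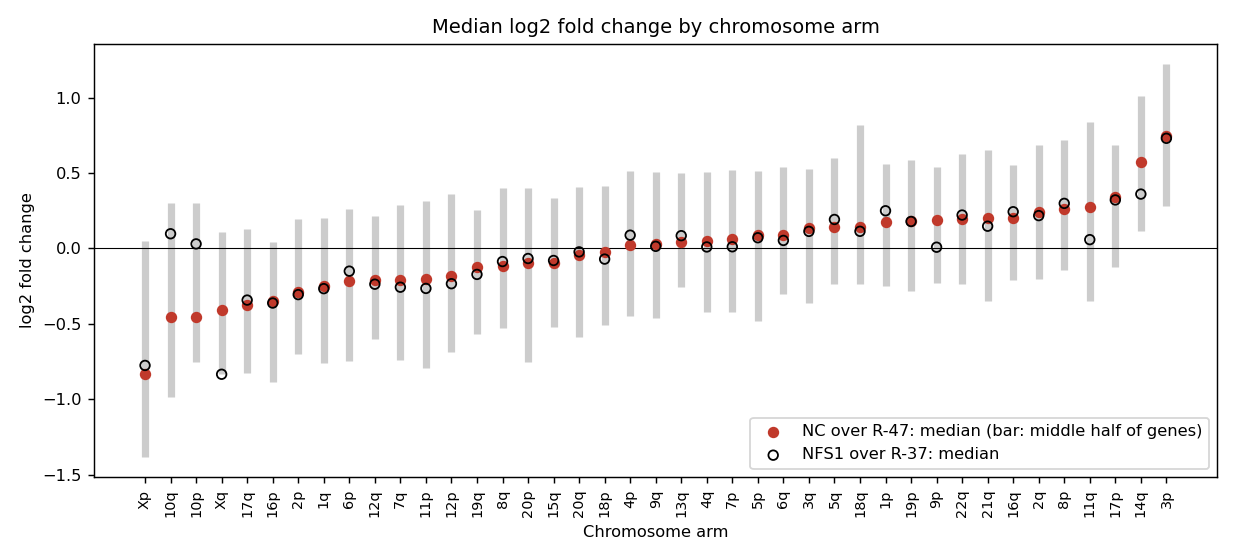
Median log2 fold change of the genes tested on each chromosome arm, NC over R-47 in red with a bar over the middle part of the genes (25th to 75th percentile), and NFS1 over R-37 as open circles. The circles follow the red points on most arms, from Xp (-0.84 and -0.78) to 3p (0.74 and 0.73), and part from them on 10q (-0.45 and 0.10).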

How the data were processed

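RNA-seq gene counts of 20 libraries were used, 5 in each of 4 groups taken from the sample titles. The authors deposited whole-number counts per gene and, per the file headers, FPKM beside them. Per the labels' protocols RNA was extracted with TRIzol and libraries made with the VAHTS Universal V6 kit. The submitters' processing notes name fastp, HISAT2 and HTSeq and the build hg38. The tool versions, annotation and use of strand in counting were not given in the sources used here. Genes that overlap on opposite strands may therefore share counts. Counts of the 10 NC and R-47 libraries were filtered with filterByExpr (minimum count 10), scaled by TMM and tested with edgeR 4.0.16 (glmQLFit, glmQLFTest, R 4.3.3) without covariates, with Benjamini-Hochberg adjustment over the 15080 genes that passed of 26038. Called means an adjusted p under 0.05. Alternatives used DESeq2 1.42.0, limma 3.58.1 (voom, and log2(FPKM + 1) or log2(FPKM + 0.1), where the pseudocount understates changes of low genes), other scalings and filters, a replicate block, a length offset and each library left out. The script was tested on simulated counts in which few genes were changed. That setting differs from these data, where most genes were called, and does not bear on the choice of scaling. Positions come from RefSeq (GRCh38.p14), where 24715 symbols matched (94.9%), and arms from rounded centromere positions. Intervals and floors cover counting error only, at the 95% level, and the floor is 3 counts per library. Genes of the Y chromosome and XIST are not shown, and a few genes that the naming rule or the lists include are not reported here.

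The named genes are the 5 markers, the 10 highest and 10 lowest called genes of average log2 CPM at least 2 without overlap, up to 2 called members per list and direction, and the 5 most abundant protein-coding genes present in each group only. Noncoding symbols were left out of these extremes. KRT8, KRT18, KRT20, ALB, HNF4A, MET, NFS1, GPX4, MKI67 and others outside this rule were added after their values were seen. Members, lists and tests were chosen with earlier results of these data known. No library pair held identical counts.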

Additional observations from a re-analysis of the deposited data

Results flagged for a closer look

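Within each group of 5, a library was singled out where its value lay so far from the nearest other that the gap passed Dixon's 95% critical value of 0.71 times the group's range. Chance alone gives about 1 in 20, and 30 of the 385 groups of named genes were singled out. Replicate 1 of NC stood apart at 159 CPM for MAGEA3 (lowest), 282 CPM for UGT1A1 (highest), 7.27 CPM for GCH1 (lowest), 173 CPM for DSP (highest), 276 CPM for CD63 (lowest), 256 CPM for MKI67 (highest) and 342 CPM for TOP2A (highest). Replicate 2 of NC stood apart at 10.9 CPM for AMDHD1 (highest), 13.7 CPM for PDGFC (highest), 1.76 CPM for COL1A1 (lowest) and 9.68 CPM for TNC (highest). Replicate 3 of NC stood apart at 0.285 CPM for SPINT1 (lowest), 2.36 CPM for NLRC5 (highest) and 0.415 CPM for LCN2 (lowest). Replicate 4 of NC stood apart at 14.2 CPM for COL4A5 (lowest) and 2.15 CPM for HPD (highest). Replicate 5 of NC stood apart at 7.502 CPM for MMP7 (lowest) and 76.8 CPM for NFS1 (highest). Replicate 1 of R-47 stood apart at 0.165 CPM for VWA3A (highest), 0.385 CPM for COL4A5 (highest), 24.997 CPM for SPINT1 (lowest), 3.77 CPM for ADAMTS1 (highest) and 4459 CPM for CAV2 (highest). Replicate 2 of R-47 stood apart at 14.7 CPM for A1CF (lowest) and 0.1697 CPM for LGR5 (highest). Replicate 4 of R-47 stood apart at 17.3 CPM for ITGAE (lowest), 1.24 CPM for PDGFC (highest), 2.54 CPM for BTG2 (lowest) and 12494 CPM for MET (highest). Replicate 5 of R-47 stood apart at 68.2 CPM for AJUBA (highest). None of these 30 values lay in the range of the other group.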

How the results depend on the processing

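All 137 genes named by the rule kept their direction and call in those of the 22 alternatives that tested them. Most were named because they were called in the main fit, so this outcome was largely set in advance. The filtered FPKM settings tested 11278 genes against 15080 in the main fit, so low genes may be missing there. With each library left out in turn, 5955 to 6101 genes were higher and 5889 to 6100 lower, and 2131 to 2293 and 2013 to 2073 passed 2-fold. Counts past 2-fold depended on the filter and the unit. Genes more than 2-fold higher numbered 3372 without a filter, 1344 with a minimum count of 50, 1144 on log2(FPKM + 0.1), 743 on log2(FPKM + 1) and 809 on log2(FPKM + 1) without a filter; those more than 2-fold lower numbered 855, 628 and 675 in these 3 FPKM settings. Lower calls fell to 3734 on log2(FPKM + 0.1) and 3741 on log2(FPKM + 1), where 11278 genes were tested. The share of calls with the same direction in NFS1 against R-37 was 78.4% by library size alone and 78.1% by DESeq2.

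Balances of lists, as calls higher minus calls lower, changed sign in these settings, and the cause was not tested. By library size alone they became 2 for liver lineage factors, 6 for chaperones, 4 for replication and mitosis, and, past 2-fold, 2 for oncofetal genes and 1 for matrix proteases. On log2(FPKM + 1) without a filter they became 2 for liver lineage factors, 1 for oncofetal genes, 3 for growth factor ligands, 5 for chaperones, 4 for replication and mitosis and, past 2-fold, 3 for liver enzymes. On log2(FPKM + 0.1) and log2(FPKM + 1) they became 6 and 6 for chaperones, 4 and 4 for replication and mitosis and, past 2-fold, 1 and 2 for liver enzymes. With a minimum count of 50 the chaperone balance was 2, and with a library left out it ran from -3 to 1, reaching 1 without NC replicate 3 and without R-47 replicate 1. The interferon balance was -1 with the length offset and ran from -1, without R-47 replicate 1, to 2 with a library left out. Past 2-fold, the oncofetal balance was 1 with the length offset and 1 without a filter. GPX4 had a log2 fold change of -0.19 with the length offset.

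Replicate numbers are shared by NC and R-47, but same-numbered libraries did not deviate together (r = 0.08, -0.01, 0.15, 0.00 and -0.01), and 2 of 5 correlated best with their own number. With the number as a replicate block, 6073 genes were higher and 6031 lower. Depth limits genes of few reads: a gene with no read in a library of this size may still hold up to 3.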
